A study of Mus musculus with 14 samples.

Results

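Expression of 10 genes that the transcription factor p53 switches on was followed through 8 RNA-seq libraries of mouse bone marrow cells from Dpy30 knockout (KO) and control donors. The genes are Cdkn1a, Mdm2, Ccng1, Bbc3, Bax, Phlda3, Sesn2, Trp53inp1, Eda2r and Zmat3. They are a list of known p53 targets, drawn up with earlier results of these data known, and their levels were not part of the rule. All 10 were found, by symbol among the 38926 gene rows of the LSK and MyePro libraries and by Ensembl ID among the 39179 gene rows of the LT-HSC libraries.

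p53, encoded by Trp53, is held at a low level by the ubiquitin ligase MDM2 and its partner MDM4. DNA damage, replication stress and other insults release it, and it then binds paired 10-base units in DNA and activates genes that stop the cell cycle, restrain growth signalling or start cell death. In hematopoietic stem cells p53 is known for its part in quiescence and in the response to irradiation. Many of its targets, Cdkn1a above all, are also set by other factors and change during differentiation.

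KO cells were Mx1-Cre; Dpy30F/- and control cells were Mx1-Cre; Dpy30F/+, so that both carried the inducible Cre transgene and a floxed allele. DPY30 belongs to the core of the SET1/MLL methyltransferases, enzymes that act on histone H3 lysine 4. Donor marrow (CD45.2+) was mixed with wild-type competitor marrow (CD45.1+) and transplanted into irradiated CD45.1+ recipients. From 7 weeks later all recipients, those with control marrow included, received 4 injections of pIpC (7.5 µg/g), an interferon inducer that switches on Mx1-Cre in interferon-responsive cells. The sort followed the last injection by 2 weeks. LSK cells, which hold stem cells and multipotent progenitors, came as 1 KO and 1 control library, and so did the more differentiated MyePro cells, each pooled from 2 to 3 mice. For LT-HSC (long-term repopulating stem cells) there were 2 KO and 2 control libraries, 1 of each from transplant 1 and from transplant 2. Each was a pool of 7 to 9 mice, and the RNA was amplified. The labels name donor origin for the LT-HSC sort, and neither the MyePro gate nor the ages of the mice are given in the sources used here.

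Gene counts ran from 6130320 (KO LSK) to 85499797 (KO LT-HSC 1) per library. Levels are given in CPM, a gene's count relative to its library's total, after TMM scaling, which sets the bulk of genes equal between libraries. LSK with MyePro and LT-HSC were scaled apart, so levels are not compared between these sets. Dpy30 itself stood at 41.7 CPM in KO LSK, against 78.0 CPM in control LSK, and at 51.6 CPM in KO MyePro, against 116 CPM in control MyePro. In LT-HSC it stood at 14.1 and 4.66 CPM in the libraries labelled KO 1 and KO 2, against 12.9 and 8.43 CPM in control 1 and 2, so that the library labelled KO LT-HSC 1 was not lower than the controls. The part of the gene that is deleted is not named, so its count checks the genotype only in part. Of 9 LSK and stem cell markers, none at 0, 0 were 2-fold higher and 4 were 2-fold lower in KO LSK (Flt3, Hlf, Mecom and Slamf1; median log2 ratio -0.35), while Ly6a stood at 61.1 CPM in KO LSK, against 31.5 CPM in control LSK. The 9 summed to 1534 CPM in KO LSK and 1809 CPM in control LSK, and to 779 CPM in KO MyePro and 871 CPM in control MyePro. The 7 myeloid progenitor markers, none at 0, summed to 6298 CPM in KO MyePro and 11185 CPM in control MyePro, and to 2713 CPM in KO LSK and 3160 CPM in control LSK. In LSK 5 of the 7 had positive log2 ratios (median 0.48), against the direction of the sum, and Mpo stood at 980 CPM in KO LSK, against 2028 CPM in control LSK. In MyePro 2 of the 7 were positive (median -0.41). There Mpo stood at 2109 CPM in KO MyePro, against 6546 CPM in control MyePro, and Ms4a3 at 1060 CPM in KO MyePro, against 396 CPM in control MyePro. In LT-HSC the 9 LSK and stem cell markers summed to 610 and 631 CPM in KO 1 and 2, against 671 and 384 CPM in control 1 and 2. Of these, 4 of 9 had positive log2 fold changes (median -0.017). Slamf1 stood at 18.1 and 26.2 CPM in the libraries labelled KO and at 26.9 and 25.4 CPM in the controls. Procr stood at 13.5 and 16.5 CPM in KO 1 and 2, against 10.7 and 7.55 CPM in control 1 and 2.

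To show what p53 could bind near these genes, the windows that RefSeq annotation (build GRCm38.p6) gives from 250 bases before to 50 bases after each transcript start were searched for the p53 consensus. The table held 11 windows for 8 of the 10 genes. An exact 10-base unit of the consensus, which reads the same on both strands, was found in 4 of the 8 genes (Cdkn1a, Ccng1, Mdm2 and Bax), against 9.56% of the 27018 genes in the table. A complete 20-base site, made of 2 units in a row with 1 mismatch in all and the core C and G of each unit kept, was found in Cdkn1a and Ccng1. Only 22 of all 32841 windows, 0.0670%, held such a site with at most 1 mismatch. Each full site overlaps the exact unit it contains. The 250 bases upstream of the start are printed for these 2 genes, and for Phlda3, which was, like Cdkn1a, more than 2-fold higher in KO progenitors and had no match in its window. Capitals mark the sites found, the 1 mismatched base of each 20-base site included.
Cdkn1a (chr17:29090729-29090978, plus strand): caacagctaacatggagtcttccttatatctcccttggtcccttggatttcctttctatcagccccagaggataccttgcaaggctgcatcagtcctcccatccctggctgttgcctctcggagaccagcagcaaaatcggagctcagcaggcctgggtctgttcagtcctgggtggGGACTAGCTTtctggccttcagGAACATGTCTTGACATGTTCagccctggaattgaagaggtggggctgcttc
Ccng1 (chr11:40755287-40755536, minus strand): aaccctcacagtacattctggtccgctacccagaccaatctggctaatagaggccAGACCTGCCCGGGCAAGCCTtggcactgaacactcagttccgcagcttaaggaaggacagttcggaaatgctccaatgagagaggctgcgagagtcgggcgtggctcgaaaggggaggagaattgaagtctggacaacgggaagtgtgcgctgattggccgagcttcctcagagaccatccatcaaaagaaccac
Phlda3 (chr1:135765835-135766084, plus strand): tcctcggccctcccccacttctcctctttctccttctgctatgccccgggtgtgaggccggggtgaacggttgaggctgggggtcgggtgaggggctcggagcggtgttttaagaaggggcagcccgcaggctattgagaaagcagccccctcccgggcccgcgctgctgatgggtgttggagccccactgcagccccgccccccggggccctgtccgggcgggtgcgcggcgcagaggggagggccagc
In Cdkn1a the full site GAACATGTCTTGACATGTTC begins at position -51 relative to the first annotated start, and a separate exact unit, GGACTAGCTT, begins at -73. The Ccng1 site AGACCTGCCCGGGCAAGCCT begins at -195. The unit GAACTTGCCT begins at -186 from the Mdm2 start and AGGCAAGCTT begins at -201 from the Bax start. Bbc3, Sesn2, Phlda3 and Eda2r held no match to these letters in their windows, nor did the window of the other annotated Cdkn1a start. The 250 bases upstream of that other start are chr17:29093519-29093768. The Cdkn1a full site, at chr17:29090928-29090947, lies farther upstream than these bases and is close to the first start only. The sites found are matches of letters, and binding was not measured.

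**Figure D1:**
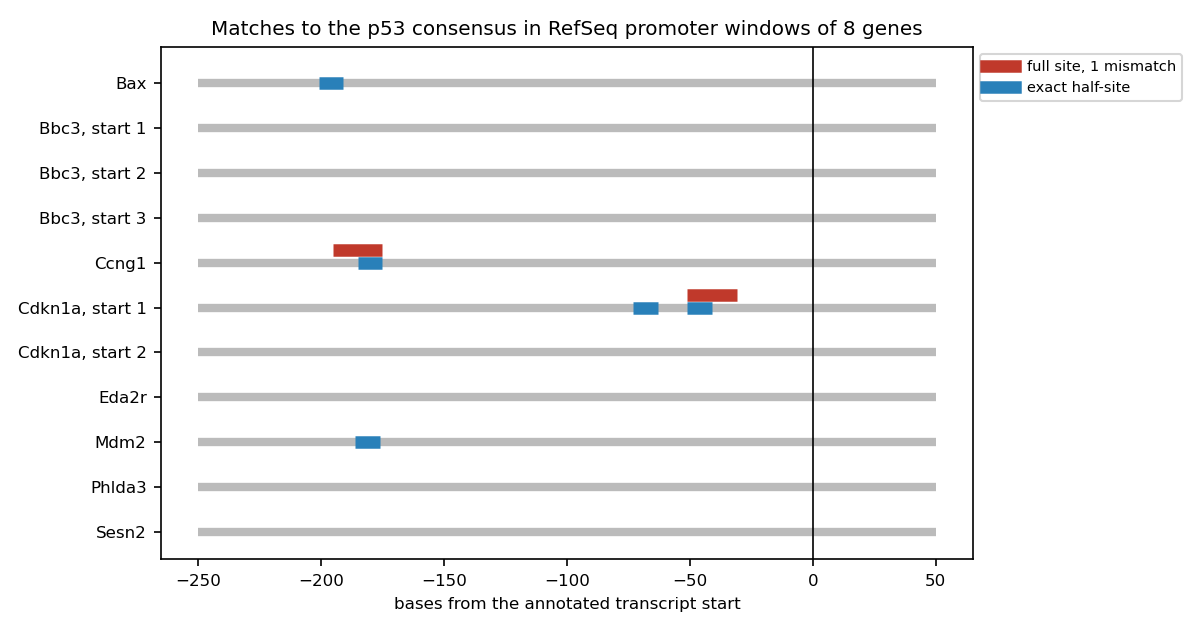
Positions of matches to the p53 consensus in the promoter windows of 8 genes, by distance in bases from the annotated transcript start (grey bar: the window searched). Red bars mark the 20-base sites of Cdkn1a and Ccng1 with 1 mismatch and blue bars mark exact 10-base units, all upstream of the start.

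The comparison of KO with control progenitors asks how p53 target expression differs between the genotypes; Dpy30 RNA was lower in the KO libraries but still present. In KO LSK 9 of the 10 genes were higher than in control LSK, and in KO MyePro all 10 were. The differences were unequal: Cdkn1a and Phlda3 were far apart between genotypes in both populations and Trp53inp1 in MyePro, while Bax, Ccng1 and Zmat3 differed little. With 1 library per group there is no replicate check and no test, and the 95% intervals given cover counting error only. In bulk RNA, a larger share of cells with a gene switched on and more RNA per cell cannot be told apart.

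Cdkn1a (chromosome 17, 29090979 to 29100722) encodes p21, the inhibitor of cyclin-dependent kinases through which p53 stops cells in G1. It stood at 33.9 CPM in KO LSK (228 counts), against 14.5 CPM in control LSK (213 counts). In MyePro it stood at 60.0 CPM in KO, against 8.66 CPM in control. The KO libraries were thus the higher in each population, and the order ran KO MyePro, KO LSK, control LSK, control MyePro with no overlap of neighbouring counting intervals. The log2 ratio of KO over control was 1.22 in LSK (interval 0.95 to 1.50) and 2.77 in MyePro (interval 2.55 to 3.04), or 2.33-fold and 6.82-fold. In control cells Cdkn1a was lower in MyePro than in LSK (log2 ratio -0.73), and in KO cells it was higher in MyePro than in LSK (0.82); these ratios share libraries with the KO over control ratios. The KO over control log2 ratio in MyePro exceeded that in LSK by 1.55 (interval 1.19 to 1.91).

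Ccng1 (chromosome 11, 40748552 to 40755309) encodes cyclin G1, a p53 target that feeds back on MDM2. It stood at 106 CPM in KO LSK, against 84.4 CPM in control LSK, and at 137 CPM in KO MyePro, against 127 CPM in control MyePro. The log2 ratios were 0.33 (interval 0.19 to 0.46) and 0.11 (interval 0.02 to 0.20), so this gene, which shares the rare promoter site with Cdkn1a, did not share the size of its difference. Mdm2 (chromosome 10, 117688875 to 117710758), the ligase that marks p53 for degradation and is itself induced by p53, stood at 61.4 CPM in KO LSK, against 46.9 CPM in control LSK. In MyePro it stood at 67.7 CPM in KO, against 45.8 CPM in control. The log2 ratios were 0.39 (interval 0.21 to 0.57) and 0.56 (interval 0.42 to 0.70), and the level followed genotype, with overlapping intervals between the KO libraries and between the control libraries.

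**Figure D2:**
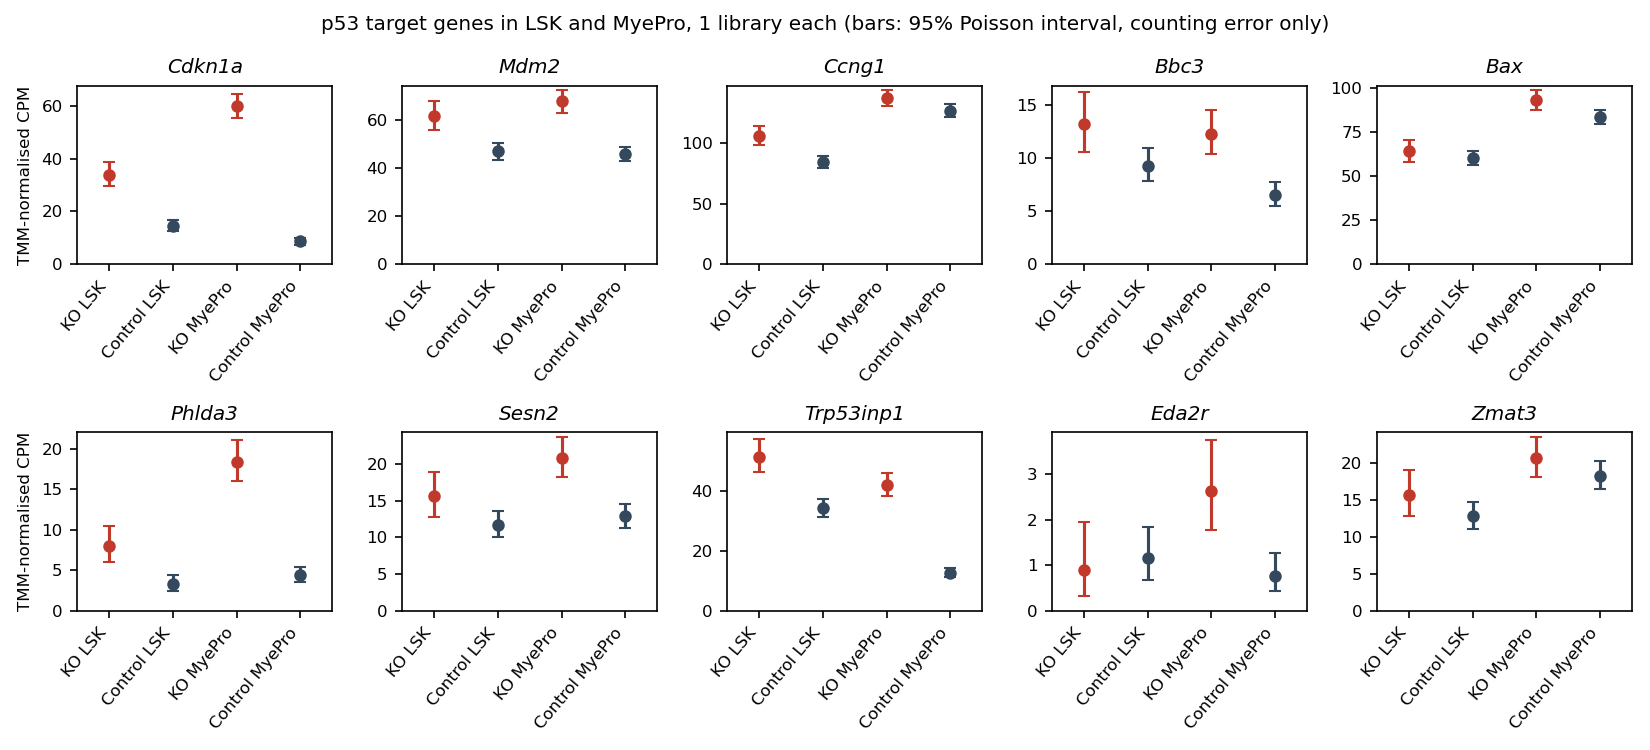
TMM-normalised CPM of each gene in KO and control LSK and in KO and control MyePro, 1 library each; points are levels and bars are exact 95% Poisson intervals that cover counting error only. Cdkn1a stands at 60.0 CPM in KO MyePro and 8.66 CPM in control MyePro, while Bax and Zmat3 lie close together.

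The cell death genes were mixed. Bbc3 (chromosome 7, 16308398 to 16318334) encodes PUMA, a BH3-only protein that triggers mitochondrial apoptosis. It stood at 13.2 CPM in KO LSK, against 9.31 CPM in control LSK, and at 12.3 CPM in KO MyePro, against 6.56 CPM in control MyePro (log2 ratios 0.50 and 0.90, intervals 0.11 to 0.90 and 0.56 to 1.27). Bax (chromosome 7, 45461695 to 45466903) encodes the pore-forming protein that PUMA sets in motion. It stood at 64.0 CPM in KO LSK, against 60.2 CPM in control LSK, and at 93.1 CPM in KO MyePro, against 83.3 CPM in control MyePro. Its log2 ratio was 0.087 in LSK, with an interval that included 0 (-0.08 to 0.25), and 0.16 in MyePro (0.05 to 0.27). Trp53inp1 (chromosome 4, 11156441 to 11174379) encodes a nuclear protein that promotes p53 activity and autophagy. It stood at 51.5 CPM in KO LSK, against 34.3 CPM in control LSK, and at 41.9 CPM in KO MyePro, against 12.6 CPM in control MyePro. Control MyePro was thus low and the other 3 libraries high, with log2 ratios of 0.59 in LSK and 1.72 in MyePro (interval 1.51 to 1.96). Eda2r (chromosome X, 97333837 to 97377234), a receptor of the TNF receptor family, was close to the detection limit, with 6 counts in KO LSK against 17 in control LSK and 30 counts in KO MyePro against 15 in control MyePro. In MyePro its log2 ratio was 1.59 (interval 0.83 to 2.77), and in LSK it was -0.32 with an interval from -2.00 to 1.04.

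Phlda3 (chromosome 1, 135766085 to 135769134) encodes a pleckstrin-homology protein that opposes the kinase AKT. It stood at 8.03 CPM in KO LSK (54 counts), against 3.33 CPM in control LSK (49 counts), and at 18.4 CPM in KO MyePro (210 counts), against 4.36 CPM in control MyePro (85 counts). The log2 ratios were 1.23 (interval 0.69 to 1.86) and 2.04 (interval 1.71 to 2.46), and the control libraries overlapped within counting error. Sesn2 (chromosome 4, 132492804 to 132510456) encodes sestrin 2, a leucine sensor that restrains mTORC1. It stood at 15.6 CPM in KO LSK, against 11.8 CPM in control LSK, and at 20.8 CPM in KO MyePro, against 12.9 CPM in control MyePro (log2 ratios 0.41 and 0.69). Zmat3 (chromosome 3, 32334792 to 32365665) encodes a zinc-finger RNA-binding protein that regulates splicing. It stood at 15.8 CPM in KO LSK, against 12.8 CPM in control LSK, and at 20.7 CPM in KO MyePro, against 18.3 CPM in control MyePro, and both intervals included 0 (log2 ratios 0.29 and 0.18).

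At a 2-fold difference, 2 of the 10 genes (Cdkn1a and Phlda3) were higher in KO LSK and 0 lower, where 4.78% of 10299 genes averaging 5 CPM or more were higher and 5.67% lower. With library totals 648 genes were higher and 457 lower in KO LSK, against 492 and 584 with TMM. In MyePro 4 of 10 (Cdkn1a, Phlda3, Trp53inp1 and Eda2r) were higher and 0 lower, where 10.7% of 10249 genes were higher and 8.63% lower. The 5 CPM minimum was met by 9 of the 10 in each population, all but Eda2r, and Phlda3 met it through its KO libraries, since its controls lay under 5 CPM. Of these 9, 2 were higher in KO LSK and 3 in KO MyePro, with median log2 ratios of 0.41 and 0.69. The median log2 ratio of the 10 genes was 0.40 in LSK and 0.79 in MyePro, against -0.06 and -0.12 over all genes with that minimum, of which 44.6% and 42.7% had positive ratios. Between populations, 1 of the 10 genes (Trp53inp1, log2 ratio -1.43) was more than 2-fold lower and 0 higher in control MyePro than in control LSK, where 6.87% of all genes were lower and 3.17% higher, and 5 of 10 were higher at all, against 57.9%. In KO cells 2 (Phlda3 and Eda2r) were more than 2-fold higher and 0 lower in MyePro than in LSK, where 3.28% of all genes were higher and 1.49% lower, and 8 of 10 were higher at all, against 52%. With the 5 CPM minimum, which the shares of all genes use, 1 of 8 was 2-fold lower in control cells and 1 of 9 was 2-fold higher in KO cells. Scaling by library totals moved the median of all genes in LSK to 0.09, and the 10 genes to 0.55. Markers of other cell types differed between the same libraries. The summed level of 7 megakaryocyte markers, none of them at 0, was 1630 CPM in KO MyePro against 150 CPM in control MyePro, and 843 CPM in KO LSK against 514 CPM in control LSK. That of 9 erythroid markers, also none at 0, was 718 CPM in KO MyePro against 5715 CPM in control MyePro, and 690 CPM in KO LSK against 1633 CPM in control LSK. The sum in KO LSK came mostly from Car2, at 657 CPM in KO LSK against 882 CPM in control LSK. In LSK 8 of the 9 were lower by 2-fold or more, with a median log2 ratio of -4.57, and in MyePro all 9 were (median -3.57). The 7 mature neutrophil markers summed to 615 CPM in KO MyePro against 26.8 CPM in control MyePro (1 of the 7 at 0 in each, Camp), and to 169 CPM in KO LSK against 11.4 CPM in control LSK (Ltf at 0 in KO, S100a8 and S100a9 at 0 in control). The KO sums came mostly from Lcn2, S100a8 and S100a9, and only 3 of the 7 averaged 5 CPM or more in each population. The 7 T and NK cell markers summed to 636 CPM in KO MyePro and 211 CPM in control MyePro (Cd3g and Cd8a at 0 in KO, Ncr1 at 0 in control), and to 575 CPM in KO LSK and 206 CPM in control LSK (Cd3e and Cd3g at 0 in control), mostly from Nkg7. The 5 B cell markers summed to 3.41 CPM in KO MyePro and 19.99 CPM in control MyePro (3 of 5 at 0 in each, Ms4a1 and Ebf1 among them), and to 1.93 CPM in KO LSK and 24.8 CPM in control LSK (2 of 5 at 0 in KO and 3 of 5 in control, Ms4a1 and Ebf1 among them), mostly from Cd79b. The part of these cell types in the p53 target levels was not tested.

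**Figure D3:**
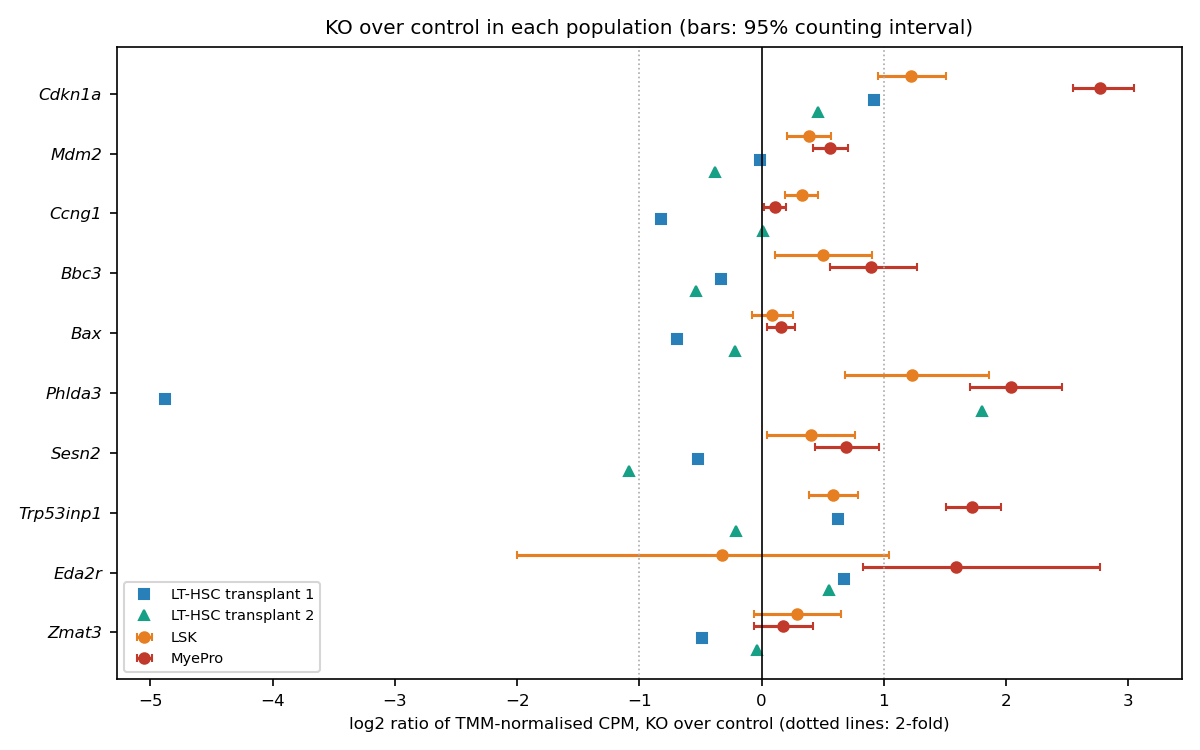
Log2 ratio of TMM-normalised CPM, KO over control, for each gene in LSK and MyePro (circles with 95% counting intervals, 1 library per group) and in each LT-HSC transplant (squares and triangles); dotted lines mark a 2-fold difference. In MyePro all 10 ratios are positive, up to 2.77 for Cdkn1a, while the LT-HSC values scatter on either side of 0.

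In LT-HSC no p53 target tested passed the threshold between genotypes. The expression filter (1 CPM or more in 2 or more libraries) was passed by 8 of the 10, all but Bbc3 and Phlda3. With edgeR's quasi-likelihood test over 12844 genes and Benjamini-Hochberg adjustment, 0 of the 8 passed an adjusted p of 0.05, where 0.0156% of all genes did. The 2 genes that did, both lower in KO, were among 5 sex-linked markers (Xist and Y-linked genes). Dpy30 itself was not called (edgeR adjusted p = 0.999). At an unadjusted p under 0.05, 0 of the 8 targets passed, where 2.29% of all genes did. DESeq2 called 0 of the 8, where it called 0.109% of all genes. With transplant as a block edgeR called 0 of 8, where 0.0311% of all genes passed, and 0 of 8 at an unadjusted p under 0.05, where 3.94% did. Of the 8, 3 had positive log2 fold changes, where 50.3% of all genes did, and 5 had negative ones, with a median of -0.24 against 0.0030 over all genes tested.

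Cdkn1a stood at 3.09 and 17.3 CPM in the libraries labelled KO 1 and KO 2, against 1.62 and 12.6 CPM in control 1 and 2. The groups overlapped, because both transplant 2 libraries were above both transplant 1 libraries. With TMM scaling the KO library was higher within each transplant, with log2 ratios of 0.92 in transplant 1 and 0.46 in transplant 2. The TMM factor was 0.580 for KO 1 and 1.20 for control 1. By library totals Cdkn1a stood at 1.79 CPM in KO 1, against 1.95 CPM in control 1, so the transplant 1 sign turned. edgeR estimated a log2 fold change of 0.52 ± 1.06 (SE; 2 libraries a group) at an adjusted p of 0.999, and with transplant as a block it was 0.69 (adjusted p = 1.00). With TMM scaling Cdkn1a was the only one of the 8 genes besides Eda2r that was higher in KO in both transplants, as 25% of all genes were. By library totals Eda2r too turned in transplant 1, at 0.690 CPM in KO 1 against 0.884 CPM in control 1. Mdm2, Bax, Sesn2 and Zmat3, 4 of the 8, were lower in KO in both transplants, as 24.4% of all genes were.

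Mdm2 stood at 35.6 and 37.1 CPM in KO 1 and 2, against 36.0 and 48.4 CPM in control 1 and 2, and 3 of the 4 libraries lay within 2 CPM of each other (log2 fold change -0.21 ± 0.282, SE). Ccng1 stood at 26.0 and 72.2 CPM in KO 1 and 2, against 45.9 and 71.6 CPM in control 1 and 2, with a KO library as both the lowest and the highest. Sesn2 stood at 1.84 and 2.44 CPM in KO 1 and 2, against 2.65 and 5.20 CPM in control 1 and 2. Zmat3 stood at 19.7 and 22.3 CPM in KO 1 and 2, against 27.7 and 22.9 CPM in control 1 and 2. For Sesn2 and Zmat3 both KO libraries lay below both controls, 2 of the 8 genes tested, where 13.9% of all genes tested did so, and for 0 of the 8 did both lie above, where 13.8% did. Neither was called (log2 fold changes -0.88 ± 0.717 and -0.27 ± 0.303, SE, both at an adjusted p of 0.999 by edgeR).

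Trp53inp1 stood at 18.2 and 9.65 CPM in KO 1 and 2, against 11.8 and 11.2 CPM in control 1 and 2, so that the KO libraries lay on either side of the controls. Bax stood at 1.11 and 3.59 CPM in KO 1 and 2, against 1.81 and 4.18 CPM in control 1 and 2, and was lower in KO within each transplant (log2 ratios -0.69 and -0.22). Eda2r stood at 1.19 and 2.29 CPM in KO 1 and 2, against 0.734 and 1.55 CPM in control 1 and 2. Its log2 fold change was 0.61 ± 0.924 (SE). Eda2r lies on the X chromosome, and the LT-HSC groups differed in sex-linked RNA: Xist, the RNA of the inactive X, stood at 2167 and 1503 CPM in KO 1 and 2, against 239 and 150 CPM in the controls, and Y-linked Kdm5d was at 0 in both KO libraries, against 29.8 and 19.2 CPM. Sex cannot be told apart from genotype in the Eda2r level, or in any other comparison of KO with control LT-HSC. Bbc3 had 3 and 23 counts in KO 1 and 2, against 4 and 22 in control 1 and 2. Phlda3 had 2 and 12 counts in KO 1 and 2, against 106 and 1 in control 1 and 2, so that its level in control LT-HSC rests on 1 library.

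**Figure D4:**
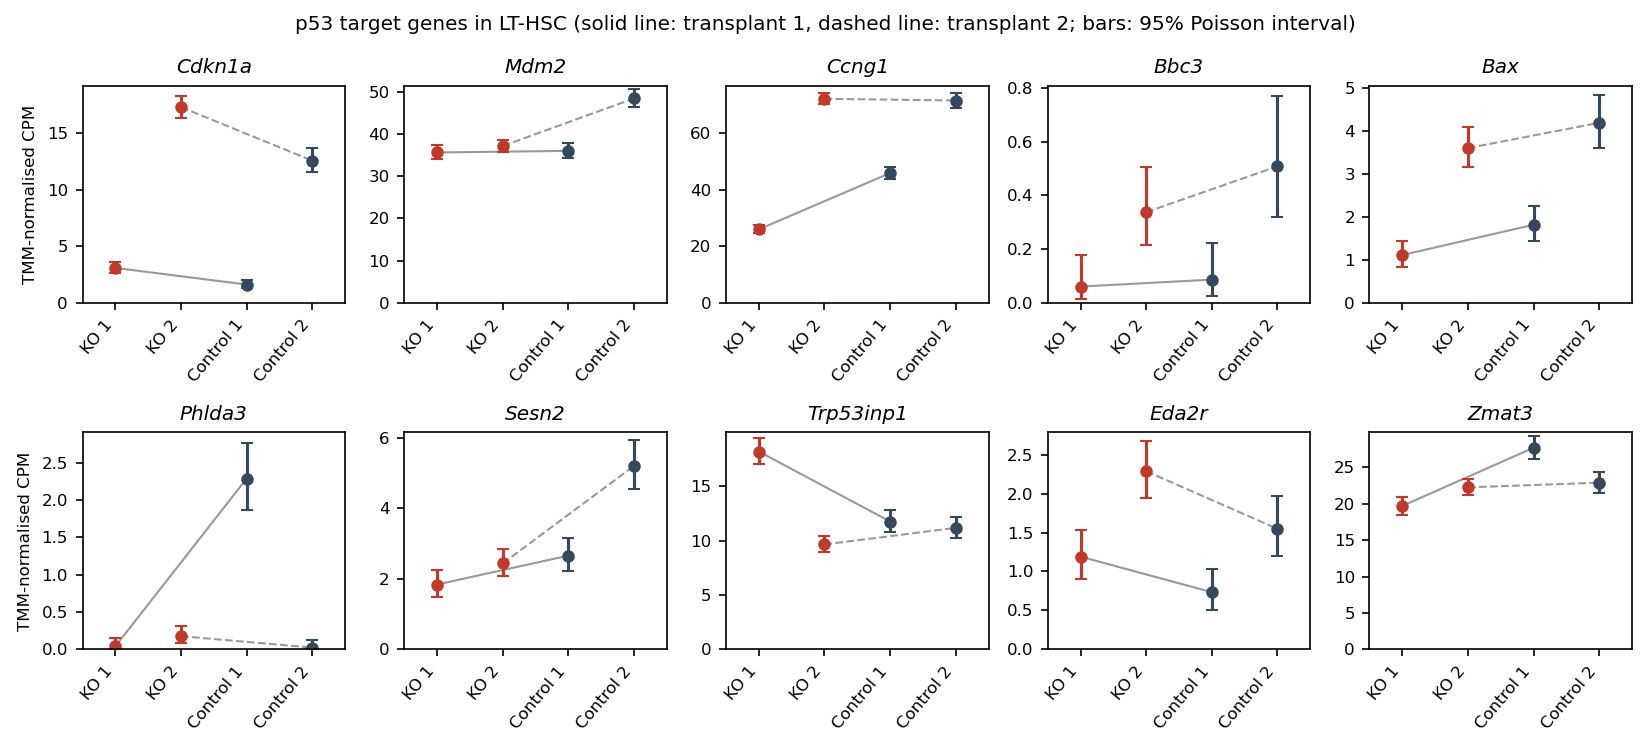
TMM-normalised CPM of each gene in the 2 KO and 2 control LT-HSC libraries; lines join libraries of the same transplant and bars are exact 95% Poisson intervals that cover counting error only. For Cdkn1a the transplant 2 libraries (17.3 CPM in KO, 12.6 CPM in control) lie above those of transplant 1 (3.09 CPM in KO, 1.62 CPM in control).

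Several of these genes differed by transplant. Both transplant 2 libraries lay above both transplant 1 libraries for 5 of the 8 genes tested (Cdkn1a, Mdm2, Ccng1, Bax and Eda2r) and below them for 1 (Trp53inp1), where 21.7% and 21.5% of all genes tested did. Myeloid progenitor markers were also higher in transplant 2, at 256 CPM in KO 2 and 309 CPM in control 2, against 81.1 CPM in KO 1 and 69.3 CPM in control 1, summed over 7 genes with Cebpe at 0 in control 1. Mature neutrophil markers summed to 216 CPM in KO 2 and 318 CPM in control 2, against 138 CPM in KO 1 and 64.8 CPM in control 1, with 0 of 7 genes at 0. T and NK cell markers summed to 45.4 CPM in KO 2 and 53.6 CPM in control 2, against 11.4 CPM in KO 1 and 13.0 CPM in control 1, with 0 to 2 of 7 genes at 0. B cell markers summed to 19.6 CPM in KO 2 and 31.7 CPM in control 2, against 5.07 CPM in KO 1 and 3.82 CPM in control 1, where Ms4a1 was at 0. Megakaryocyte markers summed to 383 CPM in KO 2 and 229 CPM in control 2, against 130 CPM in KO 1 and 190 CPM in control 1, with none at 0. All of these sums were higher in transplant 2. The 9 erythroid markers, none at 0, summed to 199 and 187 CPM in KO 1 and 2, against 390 and 204 CPM in control 1 and 2; their median log2 fold change was -1.14, with 0 of 9 positive and 0 called by edgeR. Their part in the p53 target levels was not tested.

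Among the regulators of p53 the median log2 ratio was -0.26 in LSK and -0.37 in MyePro, against -0.06 and -0.12 over all genes. Trp53 stood at 410 CPM in KO LSK, against 404 CPM in control LSK, and at 358 CPM in KO MyePro, against 497 CPM in control MyePro (log2 ratio -0.47). Mdm4, which encodes the inhibitory partner of MDM2, stood at 9.67 CPM in KO LSK, against 19.1 CPM in control LSK, and at 6.92 CPM in KO MyePro, against 17.1 CPM in control MyePro. Its log2 ratios were -0.97 (interval -1.39 to -0.59) and -1.28 (interval -1.68 to -0.95). Of 20 p53 regulators, 17 averaged 5 CPM or more in each population, and 0 in LSK differed by 2-fold or more, where 4.78% of all genes were higher and 5.67% lower. In MyePro 1 was higher and 5 were lower, where 10.7% of all genes were higher and 8.63% lower. The lower ones included Kmt5a, a histone H4 lysine 20 methyltransferase that also modifies p53 (100.1 CPM in KO, 262 CPM in control), the checkpoint kinase gene Atm (14.6 CPM in KO, 32.8 CPM in control) and the deubiquitinase gene Usp7 (135 CPM in KO, 296 CPM in control). Hipk2, a kinase that phosphorylates p53, was the 1 higher (25.2 CPM in KO, 10.6 CPM in control). In LT-HSC Trp53 stood at 96.5 and 134 CPM in KO 1 and 2, against 136 and 105 CPM in control 1 and 2, and Mdm4 at 57.9 and 47.7 CPM in KO 1 and 2, against 48.8 and 43.2 CPM in control 1 and 2. None of the 17 regulators tested there passed the edgeR threshold.

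Other known p53 targets are given as shares against all genes, of which 4.78% were 2-fold higher and 5.67% lower in KO LSK (median log2 ratio -0.06), and 10.7% higher and 8.63% lower in KO MyePro (median -0.12). Of 20 targets in arrest and repair, 1 was higher by 2-fold or more and 1 lower in KO LSK (18 averaging 5 CPM or more, median log2 ratio 0.012), shares near those of all genes, and 3 were higher and 0 lower in KO MyePro (16 genes, median -0.04). Plk2, a polo-like kinase gene, stood at 11.0 CPM in KO LSK, against 5.17 CPM in control LSK, and at 13.0 CPM in KO MyePro, against 1.33 CPM in control MyePro. Psrc1 stood at 13.1 CPM in KO LSK, against 26.8 CPM in control LSK, and was the 1 lower. The antiproliferative gene Btg2 stood at 48.8 CPM in KO MyePro, against 9.17 CPM in control MyePro, and at 6.29 CPM in the mean of KO LT-HSC, against 12.8 CPM in control LT-HSC, where it was not called. Of 25 targets in death and metabolism, 4 were higher and 0 lower in KO LSK (20 genes, median 0.22), and 7 were higher and 0 lower in KO MyePro (20 genes, median 0.38). The death receptor gene Fas stood at 9.72 CPM in KO MyePro, against 0.922 CPM in control MyePro. The desmosomal gene Perp stood at 33.6 CPM in KO LSK, against 9.04 CPM in control LSK, and the epoxide hydrolase gene Ephx1 at 14.7 CPM in KO MyePro, against 2.36 CPM in control MyePro. Fas in MyePro, like Plk2 and Ephx1, reached the 5 CPM minimum through the KO library. In LT-HSC 0 of the 34 genes tested from these lists passed the edgeR threshold.

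p21 is also known to repress cell cycle genes through the DREAM complex. Of 20 such genes, 0 had a positive log2 ratio in LSK and 1 in MyePro, where 44.6% and 42.7% of all genes did. The medians were -0.65 and -0.89, against -0.06 and -0.12 over all genes. At 2-fold, 3 of 20 were lower in KO LSK and 6 of 20 in KO MyePro, where 5.67% and 8.63% of all genes were lower. The mitotic kinase gene Plk1 stood at 33.8 CPM in KO LSK, against 112 CPM in control LSK, and at 39.2 CPM in KO MyePro, against 148 CPM in control MyePro. The proliferation marker Mki67 stood at 87.9 CPM in KO LSK, against 284 CPM in control LSK, and at 102 CPM in KO MyePro, against 294 CPM in control MyePro. In LT-HSC the median was -0.18 and 0 of the 20 passed the edgeR threshold. These genes also follow how many cells divide, and cell type markers differed between the same libraries. The part of p21 and of cell types in these levels was not tested.

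**Figure D5:**
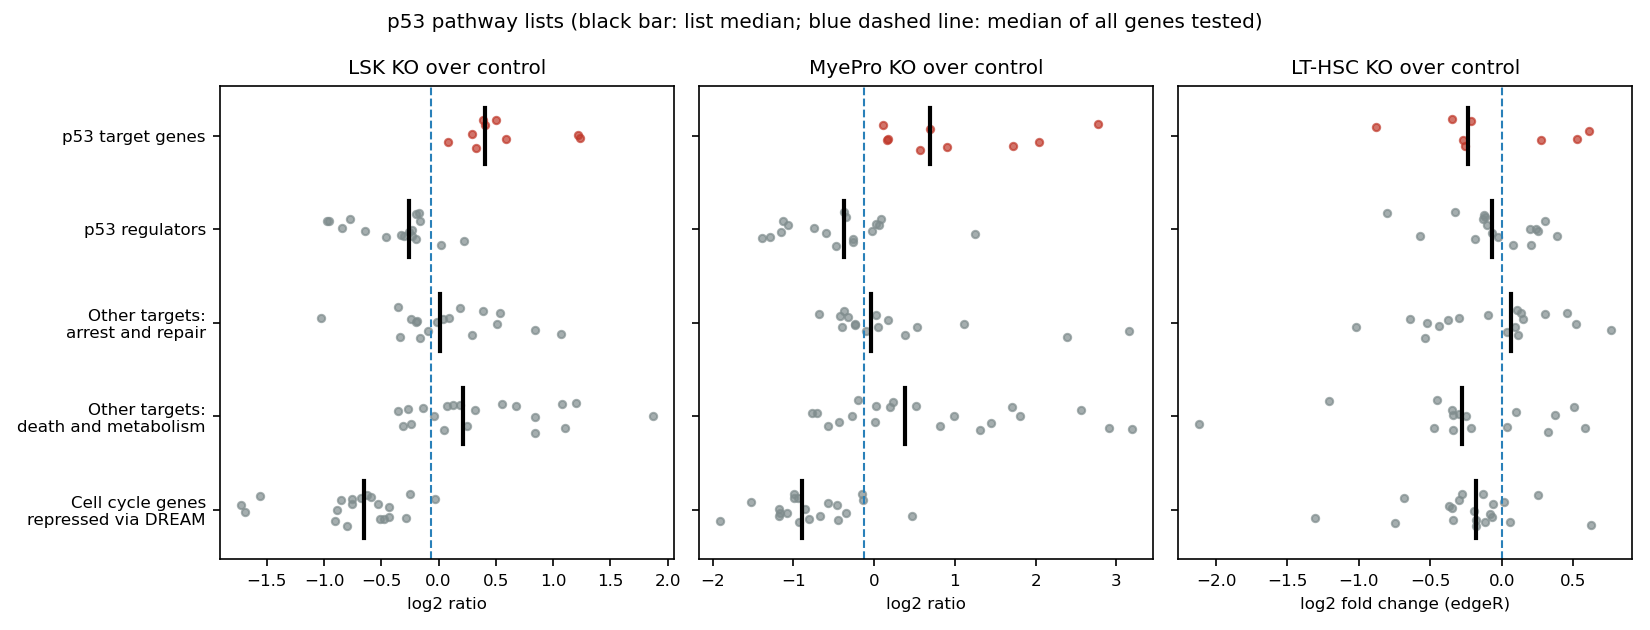
Log2 KO over control of the genes with sufficient expression in each list, in LSK and MyePro (ratios, 1 library per group) and LT-HSC (edgeR fold changes, 2 libraries per group); black bars are list medians and the blue dashed line is the median of all genes tested. The median of the cell cycle genes lies left of that line in LSK and MyePro (medians -0.65 and -0.89).

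The genes whose pattern lay nearest to that of Cdkn1a were found by Euclidean distance over 4 log2 ratios of KO over control (LSK, MyePro and each LT-HSC transplant) among 7636 genes averaging 5 CPM or more in both sets of libraries. They were Usp18 (distance 0.31), Ctsl (0.48), Stk39 (0.59), Zcchc24 (0.60) and Fn1 (0.63), where the median gene lay at 3.49. Among the p53 targets the nearest was Trp53inp1 (1.43), and Mdm2 (2.67), Zmat3 (3.13) and Ccng1 (3.33) were farther. Usp18 encodes an interferon-induced protease and had log2 ratios of 1.08 in LSK, 2.58 in MyePro, and 0.74 and 0.54 in transplants 1 and 2, beside 1.22, 2.77, 0.92 and 0.46 for Cdkn1a.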

How the data were processed

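The authors deposited unnormalised read counts by gene for each of 8 RNA-seq libraries, and CPM values were computed from these deposited counts; the 6 ChIP-seq samples were not analysed here. Per the submitters' processing notes the tools named for the series include TopHat2, Picard 1.126, HTSeq 0.6.0 and DESeq 3.0 with build mm10; their roles, the gene annotation used and whether counting was stranded are not known from the labels, so a gene and an overlapping one can share reads (RefSeq overlaps: Eda2r with a pseudogene, Zmat3 with a lncRNA). Per the labels' protocols, RNA was polyA-selected and LT-HSC RNA was amplified. Of 39179 Ensembl IDs, 37607 (95.99%) were matched to symbols. HTSeq counters, 92 ERCC entries and an unexplained DPY30-SPKIG entry were left out of library sizes. Reads without a feature were 2.40% to 6.25% of LSK and MyePro files and 16.7% to 26.0% of LT-HSC files, and mitochondrial rRNA took 45.1% to 62.4% of LT-HSC gene counts.

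For LT-HSC, edgeR 4.0.16 in R 4.3.3 was used with TMM scaling, a filter of 1 CPM or more in 2 or more libraries, the quasi-likelihood test, two-sided, Benjamini-Hochberg adjustment over all genes, no block. DESeq2 1.42.0, limma-voom (limma 3.58.1) and other settings were alternatives. Same-numbered LT-HSC libraries share a transplant per the labels; their deviations from the group means correlated at 0.292 across genes. The labels give pools and no further replicate structure, so p-values measure the spread between these pools. In LSK and MyePro, log2 ratios of TMM-normalised CPM used a prior count of 2, and 95% intervals (exact Poisson for levels, exact binomial for ratios) cover counting error only. The LT-HSC test and the LSK ratio step were run on simulated counts. These had a single dispersion and no transplant effect for LT-HSC, and Poisson noise alone for LSK. The runs therefore check the code and not how the steps perform on libraries as variable as these. The genes and lists were chosen with earlier results of these data known. The rule named the 10 genes, Dpy30, Trp53 and Mdm4, up to 4 genes past the threshold or 2-fold per list, and the 5 genes nearest to Cdkn1a.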

Additional observations from a re-analysis of the deposited data

Results flagged for a closer look

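KO over control log2 ratios of opposite sign between populations were found for Mdm2, Bbc3, Bax, Sesn2, Eda2r and Zmat3, counting LT-HSC only where both transplants had the same sign. The share of all genes that meet this rule was not counted, so the list says nothing about p53 targets as a set. In transplant 1 Dpy30 was not lower in KO, at 14.1 CPM in KO LT-HSC 1 against 12.9 CPM in control LT-HSC 1. None of the differences between populations was tested, LSK and MyePro had 1 library per group, and LT-HSC RNA was amplified while the other RNA was not. Sex-linked RNA also differed between KO and control LT-HSC. In LSK and MyePro libraries of both genotypes Xist was at most 0.613 CPM and Kdm5d stood at 19.7 to 29.0 CPM. The Mdm2 ratio in LT-HSC transplant 1 was only -0.015, and that of Zmat3 in transplant 2 only -0.041, so these signs rest on small differences. By library totals the Zmat3 sign in transplant 2 and the Eda2r sign in transplant 1 turned. For Mdm2 the mean LT-HSC ratio lay below the LSK ratio by a difference of -0.587 and below the MyePro ratio by -0.761. For Bbc3 these differences were -0.938 and -1.33, with at most 23 counts in an LT-HSC library. For Bax they were -0.539 and -0.611, and for Sesn2 -1.21 and -1.49. For Zmat3 they were -0.558 and -0.442, with counting intervals that include 0 in LSK and MyePro. For Eda2r the LT-HSC ratio exceeded the LSK ratio by 0.935 and the MyePro ratio exceeded the LSK ratio by 1.92, on 6 counts in KO LSK.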

How the results depend on the processing

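In LSK and MyePro the alternatives were library totals, RLE size factors, prior counts of 0.5 and 5, thinned counts and a 5 CPM minimum. Under these the counts of p53 target genes past 2-fold stayed within 1.5 times of those reported. The medians stayed within the averaged counting intervals of the middle-ranked genes, which are single-gene intervals and not an error of the median. The LSK median was 0.40 as reported and 0.55 with library totals. Of 100 values of single genes 1 moved beyond its counting interval (Ccng1 in LSK, 0.49 with library totals). In LT-HSC 0 of the genes were called in any of the 12 alternatives, with adjusted p from 0.817 to 1.00 over all fits. The count of all genes past the threshold, 2 as reported, was 4 with the replicate block by transplant, 4 by library totals, 1 under ERCC size factors, 0 with mitochondrial genes left out, 4 without an expression filter, 14 with DESeq2, 1 with limma-voom, and 0 to 5 with 1 library left out. The member median of -0.24 was -0.40 when library totals were used, 0.033 under ERCC size factors, and ran from -1.10 (without KO LT-HSC 2) to 0.11 (without control LT-HSC 2) with 1 library left out. With the replicate block it was -0.23, and the block changed no other call.

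Signs of single LT-HSC log2 fold changes, fitted over both transplants, turned as follows, and the cause was not tested. ERCC size factors gave Ccng1 0.13, Bax 0.075 and Trp53inp1 -0.010, and library totals gave Trp53inp1 -0.24. With 1 library left out, Cdkn1a ran from -1.21 (without KO LT-HSC 2) to 2.67, Mdm2 from -0.40 to 0.026, Ccng1 from -1.18 to 0.30, Bax from -1.43 to 0.39 and Trp53inp1 from -0.25 to 0.66. Eda2r failed the expression filter without control LT-HSC 2 and without KO LT-HSC 2. Bbc3 and Phlda3 were fitted only without the filter (log2 fold changes -0.56 and -3.38, edgeR adjusted p = 1.00 for each).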
